A study of Mus musculus with 28 samples.

Results

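Empty polymersomes are hollow polymer vesicles that carry no drug, and they were set against no treatment in splenic T cells of the mouse. The members were chosen by label: the 4 libraries from mice given empty vesicles, called PS, and the 7 libraries from untreated mice, called NT, which are 11 of the 28 libraries of the series. The vesicles are made of PEG-b-PPS, a block copolymer of poly(ethylene glycol) and poly(propylene sulfide). PS mice had 11 daily injections under the skin of the neck scruff, each of 60 mg polymer per kg from a preparation of 7.5 mg polymer per ml. NT mice had no injection, so the polymer and the injection itself cannot be told apart. All mice were healthy male C57BL/6J animals of 8 to 12 weeks, and neither group was given rapamycin, the drug that the loaded vesicles of the series carry. Spleens were taken after 11 days, red cells were lysed, and CD3-positive T cells were isolated on magnetic beads before RNA extraction. Although the series is described as single-cell, each library has 1 file of gene counts, so these are bulk measurements in which fewer cells of a type and less RNA per cell cannot be told apart.

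Injected PEG-b-PPS vesicles are taken up mainly by phagocytes such as macrophages and dendritic cells, while T cells take up few particles. The spleen filters blood and holds T cells beside B cells, plasma cells, NK cells and several kinds of macrophage. Gene families that respond quickly to handling or signalling include the immediate early genes, which code for the AP-1 and EGR transcription factors. Interferon-stimulated genes answer viral-type signals, and genes of the NRF2 pathway answer oxidants, which poly(propylene sulfide) can react with.

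Total counts were 5926263 to 9139948 per PS library and 5016232 to 15696529 per NT library. The label of T cells held unevenly in the untreated group. Cd3e, a subunit of the CD3 complex used for the sort, stood at 241 to 355 CPM of the file total, an unscaled CPM, in the 4 PS libraries. In NT it was 401 in replicate 2, 471 in replicate 6 and 75.9 in replicate 5, and 18.5 to 44.9 in replicates 3, 4, 7 and 8. These last 4 lie under 60 CPM and are called T-cell-poor here. The comparison was therefore made against all 7 NT libraries and again against the 3 T-cell-rich ones, where replicate 5 lies just inside the limit and NT replicate 8 just outside it. CPM scales counts to a common library total. Levels below are normalised CPM, which also take TMM scaling of the libraries into account.

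Markers of other cells moved with that split. The 24 monocyte and macrophage genes summed to 1410 to 2166 CPM in PS, against 1567 to 3655 in T-cell-rich NT and 9107 to 18622 in T-cell-poor NT. The 20 neutrophil genes summed to 65.5 to 106 CPM in PS, against 56.8 to 478 in T-cell-rich NT and 1220 to 5650 in T-cell-poor NT. B cell genes, 24 in all, summed to 10203 to 14604 CPM in PS, against 8630 to 15259 and 18801 to 23414 in the rich and poor NT libraries. No member of these 3 lists was at 0 in all PS libraries. The 25 T cell receptor genes summed to 4346 to 5922 CPM in PS, against 1839 to 8079 and 942 to 1423 CPM, so NT replicate 5 stood near the poor libraries at 1839. With 3 covariates in the fit, namely mean levels of monocyte and macrophage genes, of erythroid genes and of B cell genes, 1 gene rose and 0 fell against all NT libraries, and 17 rose and 1 fell against the rich ones.

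**Figure D1:**
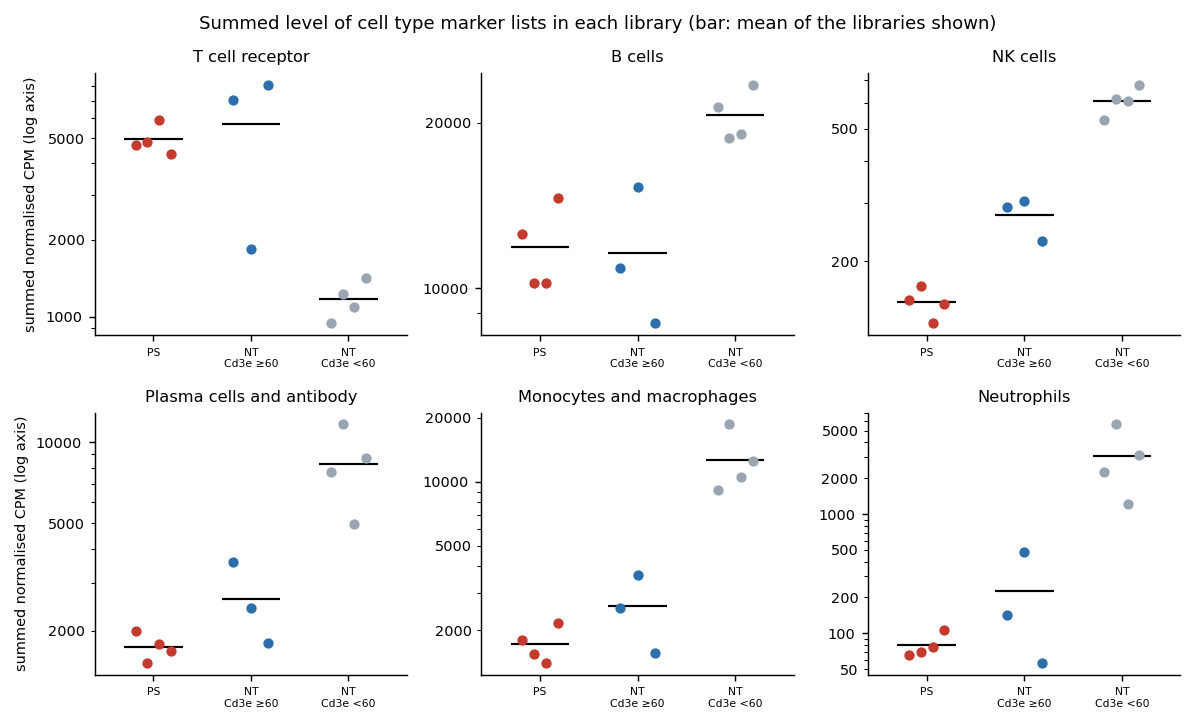
Summed normalised CPM (log axis) of 6 cell type marker lists in each library, with PS in red, T-cell-rich NT in blue and T-cell-poor NT in grey, and bars at the mean of the libraries shown. The NK list, which includes Fcgr3 and Tyrobp, sums lower in all 4 PS libraries (130 to 169) than in the NT libraries (230 to 677). Neutrophil markers of PS overlap those of T-cell-rich NT.

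Against all NT libraries, 436 genes rose and 480 fell in PS among 17101 tested, at an adjusted p under 0.05 in edgeR's quasi-likelihood test with Benjamini-Hochberg adjustment. That is 5.36% of tested genes, 2.55% higher and 2.81% lower, the background against which each list below is read. The lowest adjusted p was 0.0345, so every call lay close to the threshold. Without PS replicate 1, 3 or 4, or NT replicate 3, 4, 7 or 8, no gene was called, and without PS replicate 5 only 4 were, all higher. Without NT replicate 5, 1363 genes rose and 1558 fell, and without NT replicate 6 the counts were 1023 and 1335. By an unadjusted p under 0.05, 5438 genes (31.8%) differed, 2349 higher (13.7%) and 3089 lower (18.1%). Libraries did not overlap between the groups for 953 genes above (5.57%) and 759 genes below (4.44%) in PS.

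Against the 3 T-cell-rich NT libraries, no gene among 17000 reached an adjusted p under 0.05, the lowest being 0.147. By an unadjusted p under 0.05 in edgeR, 993 genes (5.84%) were higher and 1462 (8.60%) lower, and DESeq2 called 62 higher and 145 lower. Groups did not overlap for 1460 genes above (8.59%) and 1243 below (7.31%). The count hung on 1 library: without NT replicate 5, which leaves 2 NT libraries, 469 genes (2.69% of 17432) rose and 857 (4.92%) fell. Of the 436 genes that rose against all NT libraries, 436 were also positive against the rich ones, with a median log2 fold change of 0.82, against 1.12 with all. Of 465 fallen genes that could be tested in both, 465 were negative in both, with medians of -0.67 and -1.13. Both comparisons share the PS libraries and 3 NT libraries, so this sign count is a description.

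**Figure D2:**
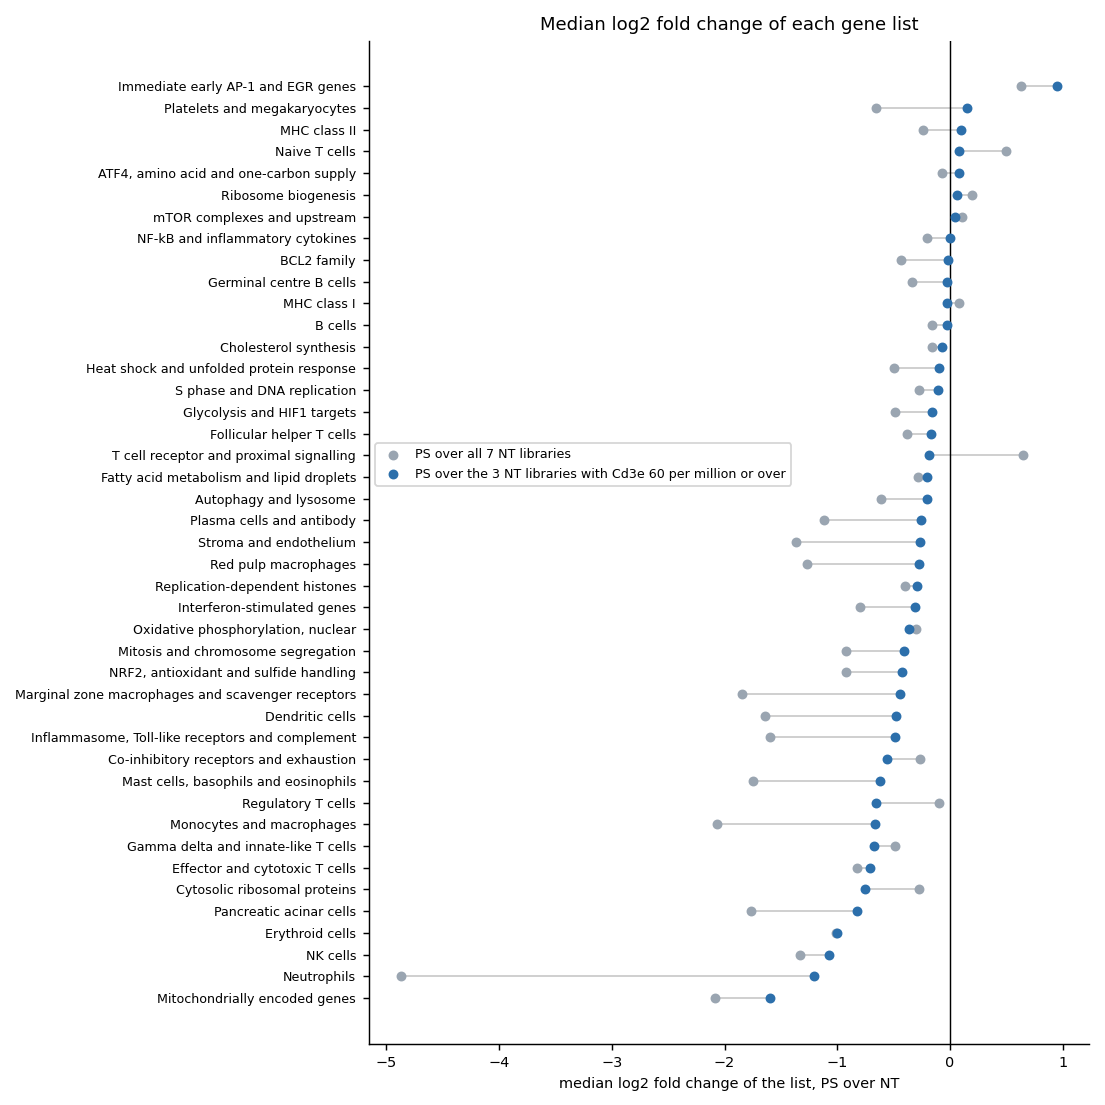
Median log2 fold change, PS over NT, of each of 43 gene lists, with all 7 NT libraries (grey) and with the 3 T-cell-rich ones (blue). Immediate early genes have the highest median against T-cell-rich NT (0.95) and mitochondrially encoded genes the lowest (-1.60), while the neutrophil median is -4.87 with all NT libraries and -1.21 without the T-cell-poor ones.

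Among the immediate early genes, 2 of 21 rose against all NT libraries, Fosb and Egr1, and none fell. The list median was 0.63, against -0.02 over all genes tested, with 14 log2 fold changes positive and 7 negative. For 9 of the 21, every PS library lay above every NT library, where the background share is 5.57%. Against the T-cell-rich libraries none of 21 was called, all 21 log2 fold changes were positive, 13 of 21 did not overlap (background 8.59%), and the median was 0.95. Without NT replicate 5 the median was 1.10, again with no call.

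Fosb, whose protein pairs with Jun proteins in the AP-1 factor, had 392, 243, 314 and 227 CPM in PS replicates 1, 3, 4 and 5. NT libraries ran from 5.53 to 37.3 CPM with a median of 26.9. No NT library came near a PS library, and the log2 fold change was 3.72 ± 1.04 (SE, adjusted p = 0.0462). Against the rich libraries, at 5.53, 26.9 and 5.93 CPM, it was 4.54 ± 1.59 with an adjusted p of 0.23. Egr1, a zinc-finger factor of the same early wave, had 157, 170, 313 and 167 CPM in PS, against 15.4 to 83.0 CPM in NT with a median of 24.9. Its log2 fold change was 2.39 ± 0.67 (adjusted p = 0.0467), and 1.74 ± 0.78 against the rich libraries (adjusted p = 0.32). The T-cell-rich replicates 2 and 6 gave its highest NT values, 71.5 and 83.0 CPM, while they gave the lowest of Fosb.

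The promoter of Fosb is shown because Fosb gave the largest rise among the called genes chosen for naming, which average at least 2 CPM and have a symbol that is neither a Gm number nor a Rik clone. It is the RefSeq window from 250 bases before the start to 50 after it (GRCm38.p6, chr7:19309996-19310295, minus strand), with the CRE half-site TGACG, part of the site bound by CREB and ATF factors, in capitals.
Fosb: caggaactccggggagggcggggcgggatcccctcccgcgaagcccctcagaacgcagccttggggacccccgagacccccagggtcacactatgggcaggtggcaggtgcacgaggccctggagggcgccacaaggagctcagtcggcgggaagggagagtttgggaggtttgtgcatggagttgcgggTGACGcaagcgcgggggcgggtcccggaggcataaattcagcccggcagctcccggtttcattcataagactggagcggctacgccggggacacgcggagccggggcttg
The half-site, searched on both strands, lay in 9 of the 17 immediate early promoters in the table and in 21% of all 27025 promoters of the same length. The full CRE, TGACGTCA, which holds the half-site, lay in 2 of the 17 (Dusp1 and Btg2) and in 1.88% of all. The CArG box of serum response factor lay in 1 (Zfp36) and in 1.57% of all. Neither is in the Fosb window.

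Other members, named after their values were seen, were also above all NT libraries without passing the threshold. Jun, the partner of Fosb, had 252, 209, 359 and 221 CPM in PS, against 13.9 to 59.5 CPM in NT with a median of 31.9 (log2 fold change 2.85 ± 0.86, adjusted p = 0.0502). Jund, a JUN protein that is usually present at rest, had 684, 553, 990 and 1146 CPM in PS, against 272 to 389 CPM in NT (1.43 ± 0.44, adjusted p = 0.0523). Dusp2, a phosphatase that switches off MAP kinases, had 249 to 410 CPM in PS, against 62.2 to 154 CPM in NT (1.56 ± 0.50, adjusted p = 0.0568).

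In several other members the T-cell-poor NT libraries lay above the T-cell-rich ones. Against all NT libraries Fosl2 (-1.56 ± 0.71), Atf3 (-1.34 ± 0.86), Klf4 (-1.05 ± 0.79), Ier3 (-0.94 ± 0.38) and Nr4a1 (-0.71 ± 0.64) had negative log2 fold changes, none of them called, and Fosl2 and Ier3 had an unadjusted p under 0.05. Against the rich libraries the same 5 had 0.21, 0.64, 0.95, 0.11 and 0.53. Fos had 179, 108, 170 and 116 CPM in PS, against 6.74 to 188 CPM in NT, with a log2 fold change of 0.66 ± 0.86 (adjusted p = 0.61). The 2 T-cell-rich replicates 2 and 6 held 7.69 and 6.74 CPM and replicate 5 held 45, whereas the T-cell-poor libraries held 98.5 to 188. Dusp1 likewise had 133 to 170 CPM in PS, against 19.5 to 106 CPM in rich NT and 165 to 272 CPM in poor NT. In the other treated groups Fosb varied widely within a group, from 5.92 to 954 CPM in 5 libraries after rapamycin-loaded vesicles, 5.72 to 285 in 5 T-cell-rich libraries after injected rapamycin and 7.05 to 190 in 4 after oral Rapamune.

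**Figure D3:**
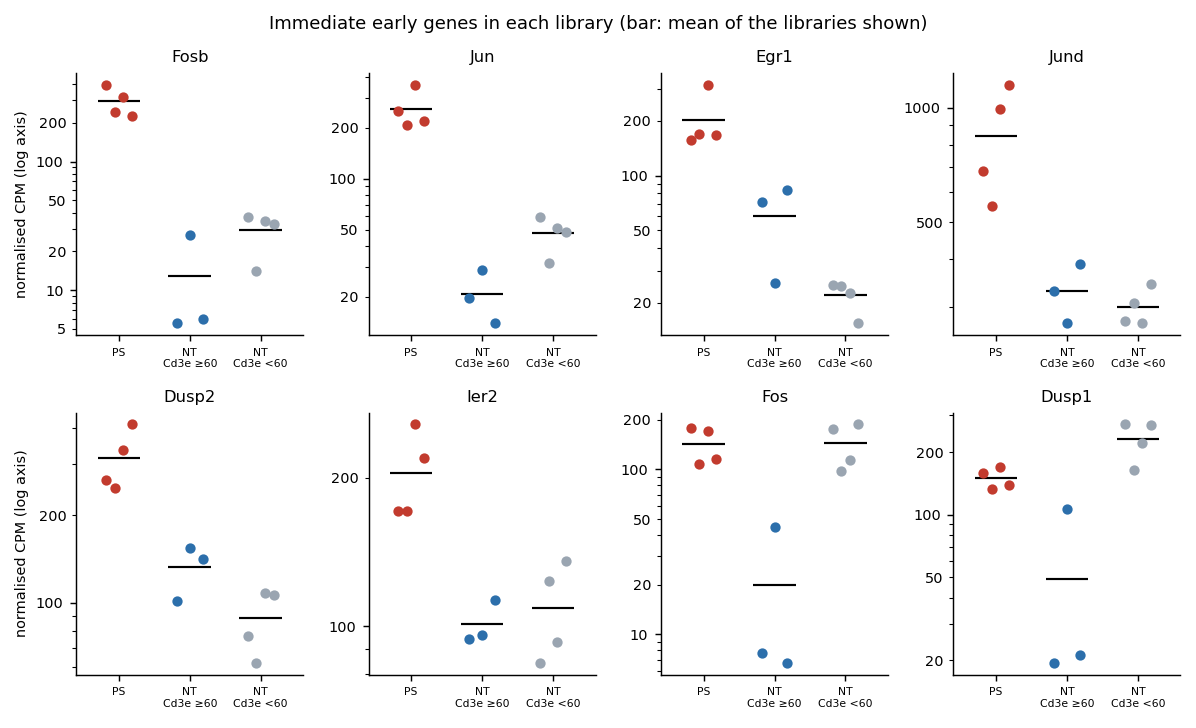
Normalised CPM (log axis) of 8 immediate early genes in each library, with PS in red, T-cell-rich NT in blue and T-cell-poor NT in grey, and bars at the mean of the libraries shown. Fosb, Jun, Egr1, Jund, Dusp2 and Ier2 lie above every NT library in PS, while Fos and Dusp1 overlap the T-cell-poor libraries.

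Beyond that family, the genes with the largest rises against all NT libraries were mostly of low level. Mir142hg, the host transcript of the blood-cell microRNA miR-142, had 34.1, 30.6, 53.8 and 49.7 CPM in PS, against 3.64 to 16 CPM in NT with a median of 7.33. Mir142hg had a log2 fold change of 2.36 ± 0.47 (adjusted p = 0.0345), and 1.80 ± 0.45 against the rich libraries (adjusted p = 0.16). Stum (2.92 ± 0.86), the clone-named AC127256.1 (2.52 ± 0.58), Pmel (2.34 ± 0.54), Nkd2 (2.29 ± 0.64), Pnma1 (2.27 ± 0.64), Lhfpl5 (2.24 ± 0.48) and Tomt (2.13 ± 0.44) also rose. In all 7 PS lay above every NT library, and therefore above the rich ones, which are among them. The 7 were chosen for their rises in these data, so this is a description (background 5.57%). Levels above NT were not particular to PS. After rapamycin-loaded vesicles Stum averaged 13.5 CPM (0.364 to 23.2), against 6.85 in PS and 0.902 in NT. Nkd2 averaged 13.9 CPM there (3.87 to 24.6), against 10.6 in PS and 2.12 in NT. The means of all 7 also lay above the NT means in T-cell-rich libraries after injected rapamycin and oral Rapamune. Pmel is known for melanosome fibres, Nkd2 for binding Dishevelled in Wnt signalling, and Lhfpl5 and Tomt for the hair-cell mechanotransduction complex.

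Among genes of higher level, Vamp2, a SNARE protein of secretory vesicles, had 198, 188, 208 and 159 CPM in PS, against 70.9 to 123 CPM in NT with a median of 86.2. Its log2 fold change was 1.08 ± 0.19 (adjusted p = 0.0345) and 0.97 ± 0.24 against the rich libraries (adjusted p = 0.16). Vamp2 was still called without NT replicate 5 in that comparison (1.18, adjusted p = 0.014), where 2.69% of all tested genes were called higher. Btg1, an antiproliferative gene of resting T cells, had 1515, 1320, 1659 and 1626 CPM in PS, against 747 to 1170 CPM in NT (0.67 ± 0.19, adjusted p = 0.0477, and 0.54 ± 0.23 with the rich libraries). It was the only one of 20 naive T cell genes to pass, and the median of that list was 0.50 with all NT libraries and 0.08 with the rich ones. Snhg20, a small nucleolar RNA host gene, had 31.4 to 34 CPM in PS, against 12.7 to 24.5 CPM in NT (0.85 ± 0.16, adjusted p = 0.0345, and 0.69 ± 0.16 with the rich libraries). Adamts7, a metalloproteinase, had 2.17 to 4.17 CPM in PS, against 0.379 to 1.71 CPM in NT (1.60 ± 0.43, adjusted p = 0.0432, and 2.48 ± 0.57 with the rich libraries). Against the rich libraries without NT replicate 5, Snhg20, Adamts7, AC127256.1, Pnma1, Lhfpl5 and Tomt were also called. Fosb (adjusted p = 0.092), Egr1 (0.33), Mir142hg (0.06), Stum (0.11), Pmel (0.0725), Nkd2 (0.081) and Btg1 (0.31) were not.

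Of 13 tested transcripts of the mitochondrial chromosome, 9 fell in PS against all NT libraries and none rose, with a list median of -2.08. Against the rich libraries none was called, 10 of 13 lay below every NT library (background 7.31%), and the median was -1.60. mt-Nd5, a complex I subunit, had 568, 712, 490 and 384 CPM in PS, against 983 to 3264 CPM in NT with a median of 1514. It stood at 1514, 1423 and 1796 CPM in the rich NT libraries and at 983 to 3264 CPM in the poor ones. The whole list summed to 4490 to 9566 CPM in PS, against 13512 to 17141 CPM in rich and 9549.5 to 60407 CPM in poor NT libraries. NT replicate 4 gave the lowest of these NT sums, within the PS range. The log2 fold change of mt-Nd5 was -1.70 ± 0.35 (adjusted p = 0.0345), and -1.55 ± 0.35 against the rich libraries (adjusted p = 0.15). The other treated groups were low as well, so this level was not particular to PS. mt-Nd5 averaged 768 CPM after rapamycin-loaded vesicles, 844 after injected rapamycin and 606 after oral Rapamune. For the last 2 groups only T-cell-rich libraries were used (5 and 4). PS averaged 539 CPM, the rich NT libraries 1578 and all NT libraries 1745. mt-Nd4, another complex I subunit, had 115, 133, 139 and 77.0 CPM in PS, against 206 to 1059 CPM in NT (-2.21 ± 0.50, adjusted p = 0.036, and -1.94 ± 0.55 with the rich libraries). Nuclear genes of oxidative phosphorylation had 0 calls in 26, with medians of -0.30 and -0.36. The mitochondrial rRNA mt-Rnr2, left out with Malat1, is listed at 0 in all 7 NT files and at 34944 to 53859 counts in PS. Outside NT, both genes are at 0 only in oral Rapamune replicate 7, which was left out of the fits. This difference between the files and the lack of treatment therefore cannot be told apart. What it means for the other genes, mitochondrial or not, was not tested.

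Among effector and cytotoxic genes, 5 of 30 fell in PS against all NT libraries and none rose (median -0.83, 23 negative and 7 positive). Against the rich libraries 9 of 29 lay below every NT library (background 7.31%) with none above (background 8.59%), and the median was -0.71 with 0 called. Id2, a regulator of effector and innate lymphocytes, had 28.2, 25.2, 30.0 and 26.6 CPM in PS, against 36.0 to 86.0 CPM in NT with a median of 60.6. Its log2 fold change was -1.19 ± 0.26 (adjusted p = 0.0345) and -1.10 ± 0.30 against the rich libraries (adjusted p = 0.17). Gzmb, the cytotoxic protease granzyme B, had 5.97, 4.21, 3.21 and 4.11 CPM in PS, against 7.70 to 22.1 CPM in NT (-1.47 ± 0.42, adjusted p = 0.0477, and -1.15 ± 0.33 with the rich libraries). Gzmb was also low after rapamycin-loaded vesicles (1.46 to 2.62 CPM). In T-cell-rich libraries it was low after injected rapamycin (2.79 to 4.32) and oral Rapamune (1.03 to 4.91) too. Without NT replicate 5, which leaves NT replicates 2 and 6, Id2 and Gzmb were called against the rich libraries too. Id2 then had -1.37 (adjusted p = 0.012) and Gzmb -1.27 (adjusted p = 0.036). In that setting 8 of 29 effector genes were called lower, where 4.92% of all tested genes were. This was not particular to effector genes. There, 6 of 25 T cell receptor genes, 6 of 15 regulatory T cell genes and 1 of 20 naive T cell genes were called lower too. T cell receptor genes summed to 7097 and 8079 CPM in NT replicates 2 and 6, against 4346 to 5922 in PS. Cd44, an activation marker (-1.93 ± 0.56), and Ifngr1, the interferon gamma receptor (-1.50 ± 0.44), also fell against all NT libraries, but the T-cell-poor libraries held the highest values of both. Their log2 fold changes with the rich libraries were -0.74 ± 0.26 and -0.71 ± 0.21. Ly6c2, which has the close relative Ly6c1, had 53.2 to 69.5 CPM in PS, against 34.9 to 236 CPM in NT (-1.17 ± 0.31, adjusted p = 0.0412, and -0.79 ± 0.32 with the rich libraries). NT replicate 5 held its lowest value.

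Of 16 NK cell genes tested, 7 fell against all NT libraries (median -1.33). Below every T-cell-rich NT library lay 10 of 16 (background 7.31%) with none above (median -1.07, 0 called). Ncr1, the activating receptor NKp46, had 7.01, 9.87, 6.53 and 7.88 CPM in PS, against 10.1 to 42.9 CPM in NT with a median of 28. Its log2 fold change was -1.71 ± 0.40 (adjusted p = 0.0374) and -1.18 ± 0.37 against the rich libraries (adjusted p = 0.20). Without NT replicate 5 there, Ncr1 was not called (-0.69, adjusted p = 0.24), and 1 of 16 NK genes was. Ncr1 was also low after rapamycin-loaded vesicles (1.72 to 7.63 CPM). In T-cell-rich libraries it was low after injected rapamycin (6.84 to 8.98) and oral Rapamune (6.26 to 10.1) too. Klrb1f, a lectin-like receptor, had 2.14 to 3.76 CPM in PS, against 3.54 to 11.8 CPM in NT (-1.50 ± 0.37, adjusted p = 0.0374, and -1.02 ± 0.40 with the rich libraries). Members of the Klra and Klrb1 families are near copies of each other, so reads may be shared among them. The NK list summed to 130 to 169 CPM in PS, against 230 to 302 in rich and 534 to 677 in poor NT libraries. Its largest falls against all NT libraries were in Fcgr3 (-3.03, called) and Tyrobp (-2.27, not called). With the rich libraries these were -1.13 and -0.71, so they followed the T-cell-poor split, as myeloid genes did. The part of myeloid cells in the list's calls and sum was not tested. The part of NK cells in the lower granzyme values was not tested.

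Interferon-stimulated genes had 3 of 30 called lower and none higher against all NT libraries, and all 30 log2 fold changes were negative, with a median of -0.80. Against the rich libraries none was called, 5 of 30 lay below every NT library (background 7.31%), and the median was -0.31. Trim30a, a TRIM protein, had 108, 105, 102 and 96.8 CPM in PS, against 129 to 240 CPM in NT with a median of 212 (-0.86 ± 0.25, adjusted p = 0.0472, and -0.45 ± 0.21 with the rich libraries). The T-cell-rich values were 152, 141 and 129 CPM. Ifi27l2a, a small interferon-induced mitochondrial protein, had 14.8, 14.4, 21.4 and 13.4 CPM in PS, against 12.4 to 68.4 CPM in NT (-1.39 ± 0.37, adjusted p = 0.041), and Rtp4, an interferon-induced chaperone, also fell (-1.50 ± 0.43, adjusted p = 0.0472). With the rich libraries their log2 fold changes were -1.43 ± 0.34 and -1.21 ± 0.32. NT replicate 5 held the lowest NT value of both, with 12.4 CPM of Ifi27l2a, below the PS range, and 8.71 CPM of Rtp4, within it.

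The Trim30a promoter is shown because its libraries did not overlap in either comparison and because its window holds the interferon response element of the list. It is the RefSeq window on GRCm38.p6, chr7:104465144-104465443, minus strand. Capitals mark the element GAAANNGAAA, here in reverse complement.
Trim30a: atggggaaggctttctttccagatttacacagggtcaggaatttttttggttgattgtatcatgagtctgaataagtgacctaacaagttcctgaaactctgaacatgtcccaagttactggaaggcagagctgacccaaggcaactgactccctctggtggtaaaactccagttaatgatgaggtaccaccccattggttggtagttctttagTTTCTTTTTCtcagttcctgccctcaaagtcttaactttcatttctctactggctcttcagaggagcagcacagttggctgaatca
This element, searched on both strands, lay in 12 of 20 interferon-stimulated promoters in the table (60.0%) and in 3.49% of all 27025.

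Of 27 tested genes of the NRF2, antioxidant and sulfide list, 5 fell in PS against all NT libraries and none rose (median -0.92, 23 negative and 4 positive). The list summed to 940 to 1183 CPM in PS, against 1031 to 1555 CPM in rich and 2007 to 3440 CPM in poor NT libraries, so it moved with the T-cell-poor split. Against the rich libraries none was called, 7 of 26 lay below every NT library (background 7.31%) and none above, and the median was -0.42. Prdx1, a peroxiredoxin, had 56.6, 46.4, 54.2 and 59.3 CPM in PS, against 57.6 to 116 CPM in NT (-0.83 ± 0.24, adjusted p = 0.0472, and -0.66 ± 0.27 with the rich libraries). Cat, the catalase gene, had 53.1 to 65.6 CPM in PS, against 56.1 to 116 CPM in NT (-0.70 ± 0.19, adjusted p = 0.0461, and -0.43 ± 0.21 with the rich libraries). For both, the lowest NT value was replicate 5, within the PS range, and the other 6 NT libraries lay above all PS libraries. Gpx4 (-1.10 ± 0.32, and -1.25 ± 0.29 with the rich libraries), Nfe2l2 (-1.08 ± 0.32, and -0.41 ± 0.16) and Txn1 (-1.13 ± 0.34, and -0.78 ± 0.26) also fell. Txn1, thioredoxin, had 28.6 to 35.2 CPM in PS, against 50.6 to 92.1 CPM in NT. Hmox1, the haem oxygenase of red pulp macrophages and an NRF2 target, had 101 to 182 CPM in PS, against 94.1 to 227 CPM in rich and 406 to 551 CPM in poor NT libraries, and was not called. Nqo1 was too low to be tested, at 0 to 0.642 CPM in PS and 0.0816 to 1.68 CPM in NT.

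**Figure D4:**
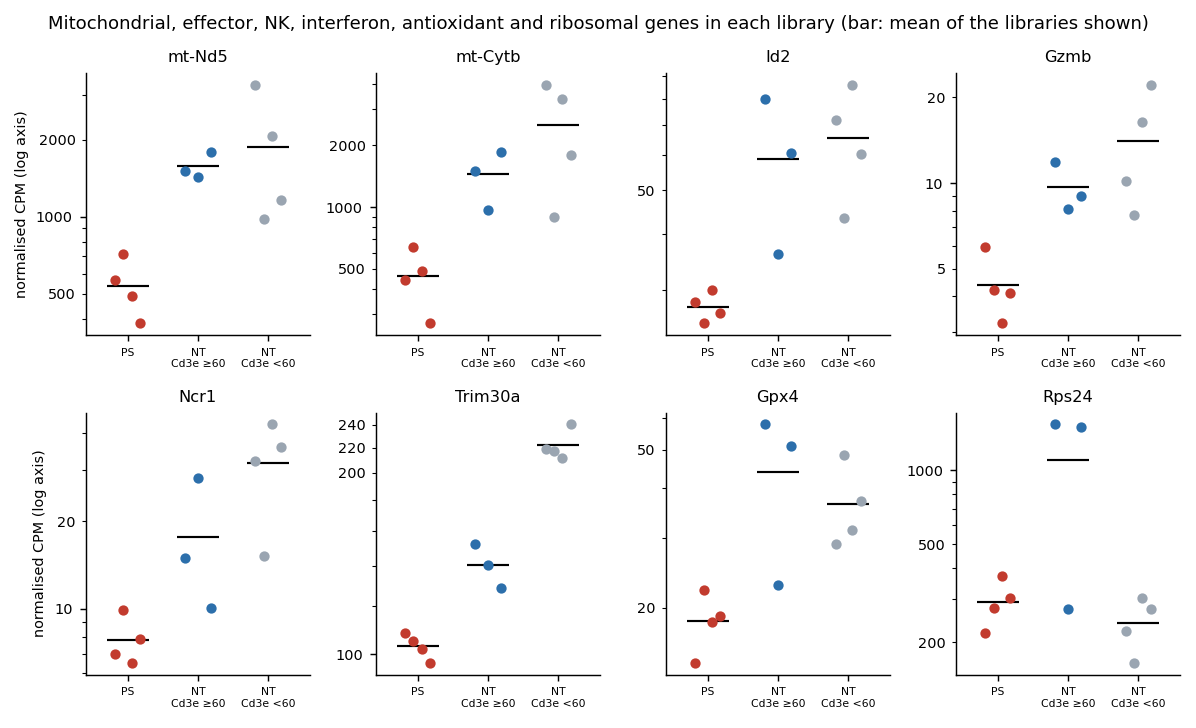
Normalised CPM (log axis) of 8 genes in each library, with PS in red, T-cell-rich NT in blue and T-cell-poor NT in grey, and bars at the mean of the libraries shown. mt-Nd5, mt-Cytb, Id2, Gzmb, Ncr1, Trim30a and Gpx4 lie below every NT library in PS, while Rps24 in PS (218 to 371) lies below NT replicates 2 and 6 (1540 and 1509) and overlaps the other NT libraries.

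The largest falls were in genes of neutrophils and other myeloid cells, and they followed the T-cell-poor libraries. Of 20 neutrophil genes, 10 fell against all NT libraries (median -4.87). S100a8, a calprotectin subunit, had 0.908, 0.809, 2.14 and 2.86 CPM in PS, against 11.1, 14.0 and 2.25 CPM in the rich libraries and 85.2 to 253 CPM in the poor ones. Its log2 fold change was -5.58 ± 1.21 (adjusted p = 0.0345) with all NT libraries and -2.39 ± 0.57 (adjusted p = 0.15) with the rich ones. Vcan, a proteoglycan of monocytes, had 1.95 to 3.96 CPM in PS, against 1.84 to 20.2 CPM in rich and 176 to 664 CPM in poor NT libraries (-6.44 ± 1.69, adjusted p = 0.0409, and -1.67 ± 0.63 with the rich libraries). Elane, Mmp8, Prtn3, Lrg1, Chil3, Mgam and Mpo fell by 5.17 to 5.89 on the log2 scale with the same split. The clone-named AC141471.2 was at 0 in all PS libraries and at 0 to 9.74 CPM in NT, and no fold is given. It was at 0 in all 5 libraries after rapamycin-loaded vesicles. In T-cell-rich libraries it reached at most 0.4185 CPM after injected rapamycin and 0.614 CPM after oral Rapamune. Its highest NT values were in replicates 2 and 6, not in the poor libraries.

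Macrophage and antibody genes showed the same split. Ms4a6c, a monocyte membrane protein, had 13.2 to 16.1 CPM in PS, against 20.4 to 35.1 CPM in rich and 133 to 236 CPM in poor NT libraries (-2.98 ± 0.84, adjusted p = 0.0472, and -0.91 ± 0.21 with the rich libraries). Cd68, a lysosomal protein of macrophages, also fell (-2.19 ± 0.62, adjusted p = 0.0472, and -0.59 ± 0.30, adjusted p = 0.37, with the rich libraries). The scavenger receptor Msr1 fell (-4.30 ± 1.25, adjusted p = 0.0483, and -1.97 ± 0.66, adjusted p = 0.21, with the rich libraries). Of 17 dendritic cell genes 2 fell, Xcr1 (-2.73 ± 0.69, and -0.92 ± 0.40 with the rich libraries) and Tlr3 (-1.85 ± 0.50, and -0.56 ± 0.40). Marco, the scavenger receptor of marginal zone macrophages, had 1.28 to 3.76 CPM in PS, against 1.89 to 8.27 CPM in NT and was not called. Igkc, the kappa light chain constant region, had 525 to 810 CPM in PS, against 784 to 1613 CPM in rich and 2269 to 4482 CPM in poor NT libraries (-1.84 ± 0.48, adjusted p = 0.0406, and -0.72 ± 0.42, adjusted p = 0.43, with the rich libraries). Of 18 plasma cell genes 4 fell against all NT libraries, and none of 24 B cell genes was called.

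In the inflammasome, Toll-like receptor and complement list 4 of 20 fell against all NT libraries, where the background is 2.81%, with a median of -1.60, and -0.49 against the rich ones. The list summed to 610 to 765 CPM in PS, against 621 to 1008 CPM in rich and 1840 to 3157 CPM in poor NT libraries. Casp4, the intracellular sensor of lipopolysaccharide, had 5.06 to 7.28 CPM in PS, against 8.92 to 14.1 CPM in rich and 25.5 to 39.6 CPM in poor NT libraries (-1.98 ± 0.50, adjusted p = 0.0387, and -1.09 ± 0.30 with the rich libraries). Il18, a cytokine released by inflammasomes, also fell (-1.94 ± 0.53, adjusted p = 0.0442, and -1.03 ± 0.55 with the rich libraries). In the NF-kB and inflammatory cytokine list none of 17 was called, with a median of -0.20 against all NT libraries. Of 34 autophagy and lysosome genes, Atg16l1 rose and 2 fell, where 2.55% of all tested genes rose and 2.81% fell. The medians were -0.61 against all NT libraries and -0.20 against the rich ones. Against all NT libraries 20 of 34 were lower at an unadjusted p under 0.05, where the share over all genes is 18.1%. Atg16l1, which attaches LC3 to membranes, had 116 to 126 CPM in PS, against 73.6 to 115 CPM in NT (0.52 ± 0.14, adjusted p = 0.0445, and 0.44 ± 0.18 with the rich libraries), and the highest NT value was replicate 5. Of 22 genes of mTOR complexes and their upstream regulators 1 rose, where 2.55% of all tested genes did, so this count is no result about the list. That gene, Rptor, the raptor subunit, had 164 to 190 CPM in PS, against 112 to 149 CPM in NT (0.45 ± 0.12, adjusted p = 0.0406, and 0.33 ± 0.14 with the rich libraries). Mtor itself had 131 to 142 CPM in PS, against 116 to 144 CPM in NT (0.11 ± 0.10, adjusted p = 0.45).

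Of 24 genes of fatty acid metabolism and lipid droplets, 2 fell and none rose. Cpt1a, which admits fatty acids to mitochondria, fell (-1.28 ± 0.34, adjusted p = 0.0407, and -1.13 ± 0.26 with the rich libraries), with 50.8 to 70.1 CPM in PS, against 68.8 to 265 CPM in NT. Acadl, a long-chain acyl-CoA dehydrogenase, had 27 to 32.3 CPM in PS, against 32.5 to 53.6 CPM in NT (-0.65 ± 0.17, adjusted p = 0.0396, and -0.55 ± 0.19 with the rich libraries). In the mitosis list 3 of 25 fell, among them Nusap1, a spindle protein (-1.54 ± 0.39, adjusted p = 0.0387, and -1.11 ± 0.42 with the rich libraries), and Ccnb2, a mitotic cyclin (-1.37 ± 0.39, adjusted p = 0.0472, and -0.77 ± 0.38 with the rich libraries), while none of 29 S phase genes was called. The poor NT libraries gave the highest values of both.

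Genes of cytosolic ribosomal proteins separated only part of the NT libraries. None of 31 was called in either comparison, and their median was -0.28 against all NT libraries and -0.76 against the rich ones. Without NT replicate 5, 24 of 31 fell against the remaining replicates 2 and 6, with a median of -1.12. Rps24 had 218, 276, 371 and 302 CPM in PS, against 1540, 274 and 1509 CPM in NT replicates 2, 5 and 6 and 165 to 302 CPM in the poor libraries. For Rps24 the log2 fold change was -1.93 ± 0.36 against the rich libraries (adjusted p = 0.15). Rpl17 (-1.41 ± 0.28) and the spliceosome gene Snrpe (-1.06 ± 0.19) were among the 5 falls with the smallest p there, with Serpina3f (-1.63 ± 0.30) and the small Cajal body RNA Scarna10 (-2.57 ± 0.50). Ribosomal protein genes have many processed pseudogenes and Serpina3f has near copies, so part of their reads may be shared.

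The high values in replicates 2 and 6 went with transcript length, an analysis chosen after the data were seen. Among protein-coding genes whose longest annotated transcript (GENCODE M21) has up to 750 bases, the median log2 fold change was -0.52 against the rich libraries (306 genes). It was -0.31 for lengths over 750 and up to 1000 bases (379 genes) and -0.03 over 6000 bases (1684 genes). Against all NT libraries the same 3 medians were -0.37, -0.26 and -0.09. Coding genes up to 1000 bases took 2.79% to 3.51% of the counts in PS libraries, against 5.84% and 5.72% in NT replicates 2 and 6, 2.72% in replicate 5 and 2.90% to 3.23% in the poor libraries. Long non-coding genes gave 168 of the 436 rises against all NT libraries (38.5%), where they are 16.8% of tested genes, and 4 of the 480 falls. They took 2.75% to 3.24% of counts in PS, against 1.65% to 2.47% in 6 NT libraries and 3.46% in NT replicate 5. As the strand setting is not stated, reads of antisense transcripts and of their partner genes cannot be told apart. Whether length or gene type moved with RNA quality was not tested.

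**Figure D5:**
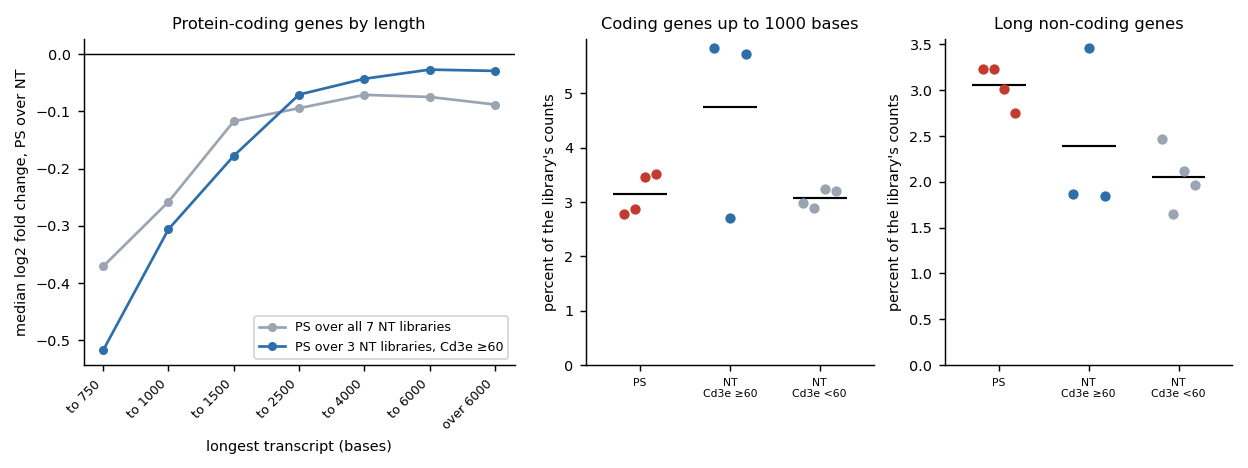
Left, median log2 fold change of protein-coding genes, PS over NT, in bins of longest transcript length, with all 7 NT libraries (grey) and the 3 T-cell-rich ones (blue). Right, percent of each library's counts in coding genes up to 1000 bases and in long non-coding genes, TEC entries included. PS is red, T-cell-rich NT blue and T-cell-poor NT grey, with bars at the mean. NT replicates 2 and 6 hold 5.84% and 5.72% in short genes and PS holds 2.79% to 3.51%.

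The balance of helper and cytotoxic T cells was compared as the ratio of Cd4 to Cd8a within a library, which needs no scaling. The log2 ratio was -0.714, -1.26, -0.936 and -0.817 in PS replicates 1, 3, 4 and 5. In NT it ran from -0.885 to -0.162 with all 7 libraries and from -0.848 to -0.700 in the 3 rich ones. The mean was -0.930 ± 0.235 in PS and -0.661 ± 0.271 in NT (SD, n = 4 and n = 7), a difference of -0.269 with p = 0.145 in an exact two-sided permutation test. Against the rich libraries the difference was -0.133, with an exact p of 0.514, where 4 against 3 cannot go below 0.0571. The groups overlapped in both comparisons. Cd4 and Cd8a themselves were not called against all NT libraries (0.64 ± 0.47 and 0.86 ± 0.54), where the poor libraries were low in both.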

How the data were processed

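RNA of splenic CD3-positive T cells was sequenced in 28 libraries. The deposited values are expected counts per gene, whole and fractional, which were rounded. The submitters' processing notes name Trimmomatic 0.39, STAR 2.7.5a, Cufflinks 2.1.1, Cuffdiff and the build GRCm39. Which tool counted reads, on which annotation and with which strand setting, is not given in the sources used here. Gene symbols, types and lengths came from GENCODE M21, which matched 52082 of 55413 gene IDs.

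PS and NT were compared with edgeR 4.0.16 in R 4.3.3 (TMM scaling, filterByExpr by group, robust quasi-likelihood fit, Benjamini-Hochberg adjustment over all tested genes, threshold 0.05). The first comparison used 27 libraries of 5 groups, so that all groups shared 1 estimate of spread. RO replicate 7 was left out because 3064 genes with 20 or more counts in the other libraries are at 0 there. The second used 21 libraries, without those whose Cd3e lies under 60 CPM of the file total, a rule that reads the data. Malat1 and mt-Rnr2, at 0 in all NT files and in RO replicate 7 but in no other file, were left out. The scripts were tested on simulated data.

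Named genes are the 10 largest called rises and falls of at least 2 CPM with a symbol that is neither a Gm number nor a Rik clone (5 with the smallest p where fewer than 3 were called), the 2 smallest p per list with a call, and a fixed panel; some of these genes are not reported here. Genes named outside this rule are list members chosen after their values were seen: Jun, Jund, Dusp1, Dusp2, Ier2, Ier3, Fosl2, Atf3, Klf4, Nr4a1, Btg2, Zfp36, mt-Cytb, Cd44, Ifngr1, Trim30a, Gpx4, Nfe2l2 and Txn1. The members and the 43 lists were chosen with earlier results of these data known. Alternatives were DESeq2 1.42.0, limma 3.58.1 (voom), other scalings, filters, covariates, library sets, a replicate block and leaving out each library. Nothing in the labels says that each library came from a separate mouse, so p-values measure the spread between these libraries. At these depths 3 counts equal 0.328 to 0.506 CPM in PS and 0.191 to 0.598 CPM in NT, for counting error only.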

Additional observations from a re-analysis of the deposited data

Results flagged for a closer look

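Of 192 sets of values tested for a library far from the rest of its group, 14 (7.29%) held one, where chance gives about 5%, and 7 of the 14 were NT replicate 5. In normalised CPM, NT replicate 5 stood apart from the other NT libraries for Atg16l1 (115), B2m (209), Cat (56.1), Hif1a (66.0), Ly6c2 (34.9), Pnma1 (9.35) and Prdx1 (57.6). NT replicate 6 stood apart for Klrb1f (3.54). Among PS libraries, replicate 4 stood apart for AC127256.1 (7.7) and Egr1 (313), replicate 5 for Elane (0.457), Mki67 (89.9) and Ms4a6c (13.2), and replicate 3 for Snrpe (17.1). The reasons were not tested.

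Both genes left out of the comparison had a signal in PS where the NT files list 0. The lowest PS library held 21600 CPM of Malat1 and 4410 CPM of mt-Rnr2, over the file total.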

How the results depend on the processing

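Genes higher and lower in PS against all NT libraries (436 and 480) numbered 31 and 11 with no low-count filter, 1110 and 1828 with DESeq2, 4698 and 4692 with limma voom and quality weights, 791 and 1252 with only PS and NT libraries, 1 and 0 with 3 covariates from other-cell lists, and 0 and 0 with all 28 libraries. Leaving out 1 library gave 0 to 1363 higher and 0 to 1558 lower. DESeq2 size factors (407 and 463) and a library size that omits mitochondrial, immunoglobulin and haemoglobin genes (409 and 488) moved the counts little. Against T-cell-rich NT libraries (0 and 0) they were 62 and 145 with DESeq2, 3492 and 3527 with voom, 6 and 0 with only PS and NT libraries, and 17 and 1 with the covariates. Leaving out 1 library gave 0 to 469 higher and 0 to 857 lower.

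The replicate numbers 3, 4 and 5 do not pair PS and NT (correlations of deviations 0.0333, -0.199 and -0.127). With a replicate block 0 genes were higher and 0 lower in both comparisons. Against T-cell-rich NT libraries the block turned Cd3e (0.12), Cd4 (0.22) and Mpo (0.028).

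Of the named genes, 79 of 86 kept their sign in every setting against all NT libraries and 70 of 82 against T-cell-rich ones. Log2 fold changes that turned against all NT libraries were, with the covariates, Cd4 -0.076, Foxp3 -0.38, Hmox1 0.38, Mpo 0.15, Sqstm1 0.20 and Syt6 -0.16, and with voom Scarna10 0.54. Leaving out 1 library gave Foxp3 -0.071 to 0.56 and Syt6 -0.16 to 0.77. Against T-cell-rich libraries voom gave Cd8a -0.26, Cpa1 1.15, Fkbp1a -0.15, Ighm 0.13, Mgam 0.27, Mpo 0.031 and Sqstm1 -0.13. The covariates gave Hmox1 0.61, Ighm 0.20 and Mki67 0.031, no filter gave Cd8a -0.0054 and Fkbp1a -0.0094, and the changed library size gave Fkbp1a -0.0016. Leaving out 1 library there gave Cd3e -0.74 to 0.17, Cd4 -0.53 to 0.13, Cd8a -0.37 to 0.34, Cpa1 -2.70 to 0.40, Fkbp1a -0.21 to 0.16, Hmox1 -0.50 to 0.13, Ighm -0.32 to 0.14, Lrg1 -2.28 to 0.23, Mgam -3.14 to 0.46, Mpo -1.14 to 0.30 and Sqstm1 -0.13 to 0.13. The Cd4 to Cd8a difference ran from -0.341 to -0.161 with all NT libraries and from -0.205 to -0.0247 with the rich ones. The cause was not tested.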

Other observations

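Regulatory T cell genes gave no call among 15 in either comparison, with a median log2 fold change of -0.09 against all NT libraries and -0.65 against the T-cell-rich ones. All 15 were negative against the rich libraries, as were 18 of 25 T cell receptor genes. Without NT replicate 5, 6 of 15 fell there, where 4.92% of all tested genes fell. In that setting 6 of 25 T cell receptor genes and 4 of 11 gamma delta and innate-like T cell genes fell too. Genes of gamma delta and innate-like T cells gave no call in either main comparison, with medians of -0.48 and -0.68. Erythroid genes summed to 974 to 2618 CPM in PS, against 1789 to 4671 CPM in T-cell-rich and 1079 to 2332 CPM in T-cell-poor NT libraries, and none of 19 was called. The MHC class II list had no call among 11, with medians of -0.24 and 0.10. Of 18 MHC class I genes 2 fell, among them B2m, the light chain of class I molecules, with 324 to 423 CPM in PS, against 209 to 1301 CPM in NT.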
